A study of Mus musculus with 2 samples.

Results

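DEAD-box and DEAH-box helicases are RNA-remodelling ATPases named after the amino acids of a conserved ATP-binding motif. In the mouse their genes carry the symbols Ddx and Dhx. The genes described here are those with such a symbol, followed by a digit, that the deposited Sox4 peak list names for at least 1 peak. They number 43, of 11193 genes listed for any peak, and they were listed for 79 of the 8730 peaks. The mouse RefSeq gene table holds 53 protein-coding genes with such symbols, so 10 were not listed. A gene was given a promoter peak when the peak interval lay within 5 kb of the start (TSS) of one of its transcripts. Of the 43 genes, 32 had one. Among all 20953 protein-coding genes on the autosomes and chromosome X, 10250 were listed for a peak and 6875 had a promoter peak.

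The series holds 1 Sox4 bioChIP library and 1 input chromatin library, both of p190 Bcr-Abl immortalized progenitor B cells of C57BL/6 mice, derived from embryonic fetal liver. Both carried the same retroviral constructs, per the labels: BAP-Sox4, SE-Cre, p190 Bcr-Abl and the biotin ligase BirA. BAP-Sox4 is a tagged form of the HMG-box transcription factor Sox4, and streptavidin beads captured it with its chromatin. Only the peaks of the bioChIP library were analysed here. There was no replicate, no test between conditions was possible, and the labelled cell type could not be checked against markers because no expression was measured. No pull-down from cells lacking tagged Sox4 was analysed here, and a peak does not by itself show Sox4 at a site. Peaks held at least 25 tags each.

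These helicases accompany RNA through its life. Spliceosomal helicases drive the rearrangements of each splicing cycle, nucleolar ones help to fold ribosomal RNA, and others export, translate or degrade messenger RNA or detect viral RNA. In blood cells, DDX41 and DDX3X are known as genes that are mutated in human leukaemia or lymphoma. All values below are the authors' own per peak: the number of tags, the fold over the background that the peak caller expected, and a score, taken to be the caller's p-value on a minus 10 log10 scale. They rank peaks within this 1 library only.

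Of the 52 family genes on the autosomes and chromosome X, 32 had a promoter peak (61.5%, exact 95% interval 47.0 to 74.7%), against 32.8% of the 20953 protein-coding genes on the same chromosomes. The family was made up of 36 Ddx genes, of which 21 had one, and 16 Dhx genes, of which 11 had one. The interval covers counting error only, and genes are not replicates. With any peak in the gene or within 25 kb counted, 43 of the 52 genes were listed, against 48.9% of all genes. With a start window of 1 kb the promoter count was again 32 (against 30.2% of all genes). It was 24 when each peak counted for its closest gene alone (46.2%, against 27.6%), and 20 for peaks at or above the list's median score (38.5%, against 18.9%). The peak interval covered the TSS in 31 of the 32 genes (59.6% of the family, against 28.4% of all genes), and in the last, Ddx3x, it began 36 bp inside the gene. No family gene had its closest peak between 36 bp and 7117 bp from its start, so the limit of 5 kb did not decide any member. Family genes with a promoter peak had a median gene length of 22.4 kb and those without one 24.4 kb, while all genes with and without one had 24.1 and 15.0 kb.

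In strength the helicase promoter peaks were close to other promoter peaks. For the 32 genes the score had a median of 124.7 (quartiles 83.8 and 188.2), against 119.2 (79.7 and 197.6) for all 6875 genes with a promoter peak. The median fold was 4.86 for the family and 4.51 for all these genes. Median tags were 79.5 for the family and 78 for all, and median widths were 982.5 and 982 bp. A peak of fold 10 or more was found at 3 of the 52 genes (5.77%, against 1.48% of all genes), and one of fold 5 or more at 13 (against 11.9% of all genes). The 3 were Ddx5, Dhx9 and Dhx15, and Dhx30 followed at a fold of 9.43. Among genes with a promoter peak only, 9.38% of the 32 family genes were at 10-fold or above, against 4.51% of the 6875, and 40.6% were at 5-fold or above, against 36.0%.

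**Figure D1:**
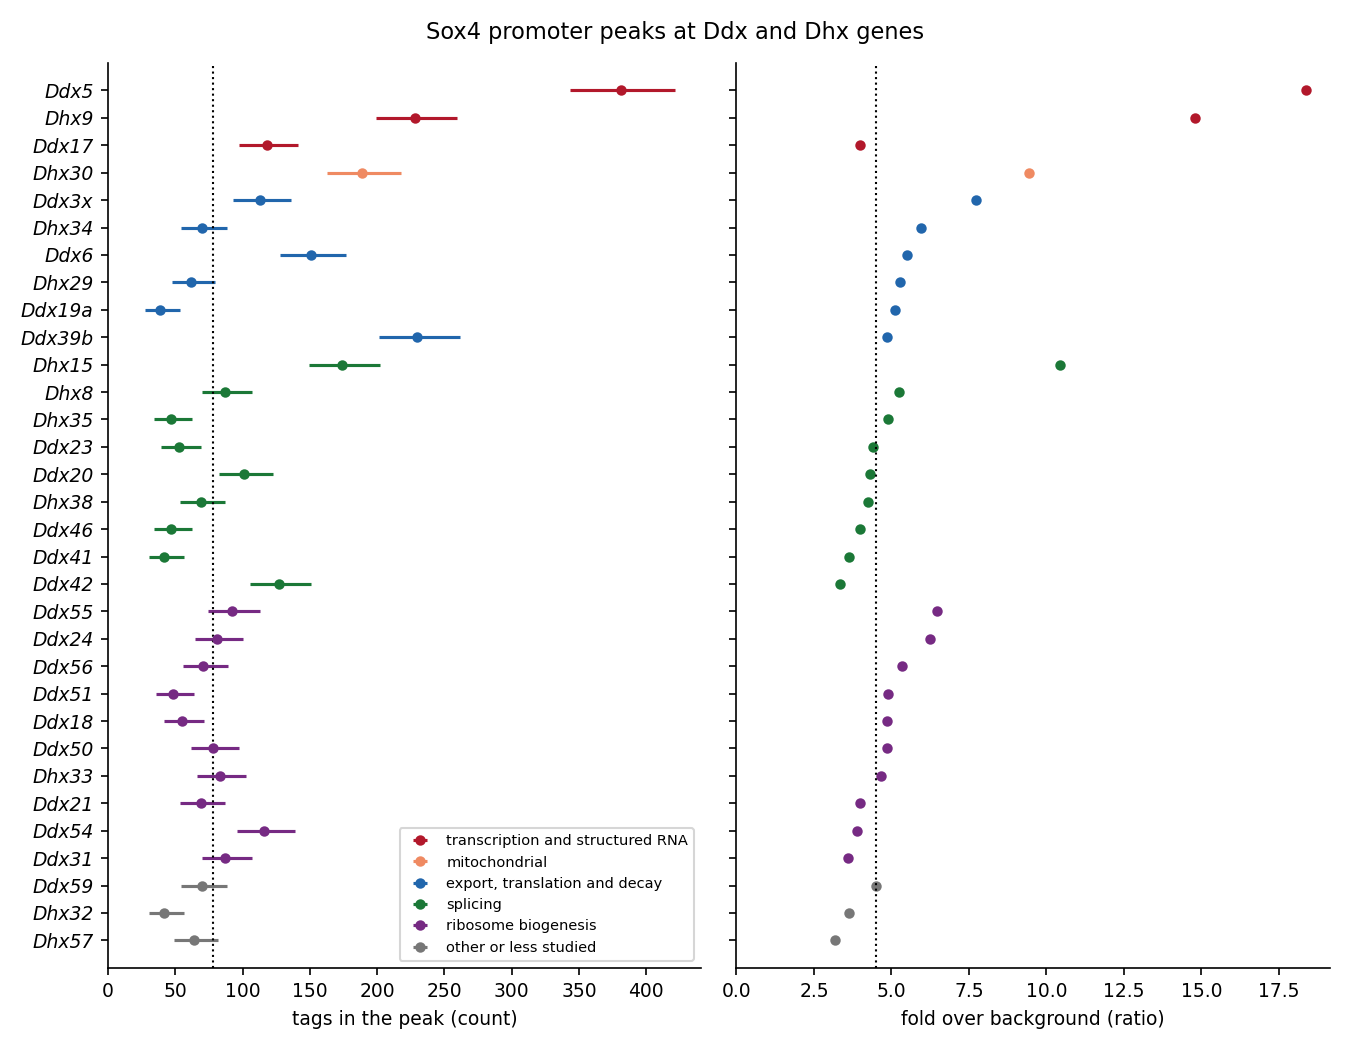
Tags in the peak (left, count, with exact Poisson 95% intervals) and fold over background (right, ratio) of the highest-scoring promoter peak of each of the 32 helicase genes, coloured by role. Dotted lines are the medians of all genes with a promoter peak, 78 tags and a fold of 4.51; Ddx5, Dhx9 and Dhx15 lie above a fold of 10.

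The highest peaks belonged to helicases that act in transcription and on structured RNA. In this small group 3 of 5 genes had a promoter peak, against 32.8% of all genes. Ddx5 encodes p68, a cofactor of transcription factors that also serves splicing and microRNA processing. Its peak (mm9 chromosome 11, 106648480 to 106651005, 2525 bp wide; NM_007840) held 381 tags (exact 95% interval 344 to 421) at 18.4-fold over background, with a score of 1300.4 (rank 78 of 8730). Dhx9 encodes RNA helicase A, which unwinds double-stranded RNA and RNA-DNA hybrids. It had 228 tags (199 to 260) at 14.8-fold (score 758.5, rank 199; chromosome 1, 155333733 to 155335141; NM_007842). A second, weaker Dhx9 promoter peak lay 1231 bp upstream of the TSS with 64 tags at a fold of 4.78. Ddx17 encodes p72, the close paralogue of p68, and had a much lower peak with 118 tags (97.7 to 141) at 4.0-fold (score 124.2, rank 3543; chromosome 15, 79376163 to 79377734). That peak covered the start of 3 listed Ddx17 transcripts and lay 12817 bp upstream of the start of NM_152806. The tag intervals of Ddx5 and Ddx17 did not overlap, but the peaks differ in width (2525 and 1571 bp). Per kb of peak they held 150.9 and 75.1 tags. The intervals cover counting error in 1 library only. Ddx1, a component of the tRNA ligase complex, and Dhx36, which unwinds G-quadruplexes, were not listed for any peak.

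The promoters of the helicase genes with the highest folds, Ddx5 and Dhx9, are shown beside those of Ddx1 and Dhx36, which had no listed peak. Ddx1 and Dhx36 come first by symbol among the Ddx and Dhx genes with a promoter sequence but no listed peak. Each is the RefSeq sequence from 250 bases before to 50 bases after a start, 5′ to 3′ on the gene's strand, in build GRCm38.p6, whose positions cannot be set against the mm9 positions of the peaks. Capitals mark the SOX-type letters ACAAAG or ACAATG and the ETS-type core CCGGAA, on either strand.
Ddx5, chr11:106788445-106788744, minus strand: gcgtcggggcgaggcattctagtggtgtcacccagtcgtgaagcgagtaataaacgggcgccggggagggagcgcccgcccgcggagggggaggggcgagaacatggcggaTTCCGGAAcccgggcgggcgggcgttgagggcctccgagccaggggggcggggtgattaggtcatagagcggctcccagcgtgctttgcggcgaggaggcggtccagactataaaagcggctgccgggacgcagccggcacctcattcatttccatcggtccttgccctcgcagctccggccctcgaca
Dhx9, chr1:153487611-153487910, minus strand: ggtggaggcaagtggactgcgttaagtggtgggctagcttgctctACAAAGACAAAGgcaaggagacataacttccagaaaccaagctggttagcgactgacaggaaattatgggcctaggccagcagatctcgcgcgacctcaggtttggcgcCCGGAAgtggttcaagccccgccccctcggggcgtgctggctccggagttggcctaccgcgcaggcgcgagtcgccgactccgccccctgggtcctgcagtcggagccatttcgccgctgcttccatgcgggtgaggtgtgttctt
Ddx1, chr12:13249125-13249424, minus strand: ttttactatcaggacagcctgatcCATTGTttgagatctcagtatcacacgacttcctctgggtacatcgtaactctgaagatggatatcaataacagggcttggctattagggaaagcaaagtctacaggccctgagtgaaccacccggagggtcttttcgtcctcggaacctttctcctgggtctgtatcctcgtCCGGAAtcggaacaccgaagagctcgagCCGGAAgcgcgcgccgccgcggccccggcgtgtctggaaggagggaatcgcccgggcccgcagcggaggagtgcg
Dhx36, chr3:62506939-62507238, minus strand: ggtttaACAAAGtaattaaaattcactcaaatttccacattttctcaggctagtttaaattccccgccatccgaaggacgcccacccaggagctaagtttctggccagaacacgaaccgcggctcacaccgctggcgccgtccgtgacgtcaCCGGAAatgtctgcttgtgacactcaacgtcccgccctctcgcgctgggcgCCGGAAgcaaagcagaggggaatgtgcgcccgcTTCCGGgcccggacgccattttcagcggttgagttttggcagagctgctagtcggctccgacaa

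All 4 promoters were rich in CpG dinucleotides, with 34 in Ddx5, 22 in Dhx9, 24 in Ddx1 and 26 in Dhx36. Dhx9 held ACAAAG 2 times in tandem, beginning 205 and 199 bases before the start, Ddx1 held the reverse complement of ACAATG at 226 bases and Dhx36 held ACAAAG at 244 bases. The Ddx5 window held neither SOX-type word, and its CCGGAA overlaps its own reverse complement in the run TTCCGGAA. By the listed starts, the peak summits of Ddx5 and Dhx9 lay 777 and 201 bp downstream, past the 50 bases printed there. The printed letters therefore do not describe the sequence under these summits. The table gives several Ddx5 starts, and the one printed lies 758 bp from the start of the neighbour Cep95, as the starts in the deposited list do.

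Across the family, 46 of 52 genes had a sequence in the RefSeq table, with 1 start taken per gene, the most upstream (this differs for Ddx5 from the start printed). A SOX-type word on either strand stood in 5 of 29 family promoters with a peak and in 6 of 17 without one. The same word stood in 19.9% of all promoters of genes with a promoter peak, in 27.9% of those without one and in 25.2% of all 16783 promoters. The word CCGGAA stood in 12 of 29 family promoters with a peak and in 8 of 17 without one, against 32.2% of all promoters with a peak, 13.3% of those without one and 19.6% of all. GGGCGG, the GC-box core, which can overlap CCGGAA by its end letters, stood in 20 of 29 and in 10 of 17, against 71.2%, 36.2% and 47.9%. Family promoters with a peak had a median of 25 CpG and those without one a median of 24, while over all genes the medians were 24 with a promoter peak and 7 without one. Helicase promoters without a peak therefore carried about as many CpG as those with one. The windows are short, and these letters are a description, not sites.

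Of the splicing helicases, 9 of 10 had a promoter peak, against 32.8% of all genes. The role lists were drawn up with earlier results of these data known, so this share is a description only. Ddx5, which also serves splicing, was counted under transcription and structured RNA. The order of the roles depended on the peaks used. At or above the list's median score (18.9% of all genes) the splicing count was 4 of 10. That was below the shares of export, translation and decay (5 of 8), transcription and structured RNA (3 of 5) and ribosome biogenesis (7 of 16). With closest genes alone (27.6% of all genes) the splicing count was 6 of 10, against 6 of 8 for export, translation and decay. Dhx15, the mammalian counterpart of yeast Prp43 that takes spliceosomes apart, was the strongest, with 174 tags (149 to 202) at 10.45-fold (score 552.6, rank 359; chromosome 5, 52580912 to 52582156; NM_007839). Ddx20, which encodes the Gemin3 subunit of the SMN complex that assembles spliceosomal particles, had 101 tags (82.3 to 123) at 4.32-fold (score 194.4, rank 1857; chromosome 3, 105489995 to 105491066). Dhx8, the counterpart of yeast Prp22 that releases spliced messenger RNA, had 87 tags (69.7 to 107) at 5.24-fold (score 133.8, rank 3202; chromosome 11, 101593744 to 101594680). These 3 peaks covered the TSS of their genes and had the highest scores of the group.

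Ddx42, a helicase associated with the U2 particle, had a fold of 3.33 (score 113.5), and Ddx23, the counterpart of Prp28, had 4.39 and 97.2. Dhx38, the counterpart of Prp16, had a fold of 4.24, and Dhx35 had 4.88. The lowest splicing peaks were at Ddx46, the counterpart of Prp5 (47 tags, fold 4.0, score 56.1), and at Ddx41 (42 tags, fold 3.62, score 53.7). Both scores lie close to the lowest in the list, 50.03. Dhx16, the counterpart of Prp2, had no promoter peak, although 7 peaks were listed for it, more than for any other family gene. The nearest lay 9007 bp upstream, in an intron of Ppp1r18. The strongest of the 7 had 217 tags at a fold of 10.2, lay 12961 bp upstream of the Dhx16 start, and was assigned to the Ppp1r18 promoter.

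Of the helicases of messenger RNA export, translation and decay, 6 of 8 had a promoter peak, against 32.8% of all genes. Their median fold was 5.39, against 4.51 for all genes with a promoter peak. Ddx39b encodes UAP56 of the TREX export complex and had the widest of these peaks, 2396 bp, with 230 tags (201 to 262) at 4.86-fold (score 439.0, rank 506; chromosome 17, 35378079 to 35380475). Ddx6, which acts in messenger RNA decay and in P-bodies, had 151 tags (128 to 177) at 5.50-fold (score 346.9, rank 740; chromosome 9, 44412341 to 44414051). Ddx3x, which helps ribosomes through structured leaders, had 113 tags (93.1 to 136) at 7.74-fold (score 298.2, rank 944; chromosome X, 12858183 to 12859324). It is the only family gene of the background on chromosome X, where 70 of 905 genes (7.73%) had a promoter peak. Dhx34, a factor of nonsense-mediated decay, had a fold of 5.96, and Dhx29, which acts in ribosome scanning, had 5.29.

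The paralogous pairs of this group were unequal. Ddx19a, a helicase of export through the nuclear pore, had a small peak over its TSS with 39 tags (27.7 to 53.3) at 5.11-fold with a score of 66.2, while its neighbour Ddx19b had no promoter peak. Ddx39a, the paralogue of Ddx39b, had no promoter peak. Ddx3y on chromosome Y, the partner of Ddx3x, was not listed and is outside the 52 genes; the list holds 0 peaks on chromosome Y. Whether reads could be assigned to the right copy of such paralogues was not tested.

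Of the helicases of ribosome biogenesis, 10 of 16 had a promoter peak (62.5%, against 32.8% of all genes). These peaks were all of modest size, with 48 to 116 tags and folds of 3.59 to 6.47. The highest scores were at Ddx24 (chromosome 12, 104663523 to 104664505; 81 tags, 64.3 to 101; fold 6.24, score 186.2, rank 1983) and at Ddx55, the counterpart of yeast Spb4 (chromosome 5, 125002405 to 125003434; 92 tags, 74.2 to 113; fold 6.47, score 185.9, rank 1989). Next by score was Ddx54 (chromosome 5, 121062226 to 121063635) with 116 tags (95.9 to 139) at 3.90-fold, a score of 142.3 and rank 2939. All these peaks covered the TSS. Folds were 5.33 at Ddx56, 4.90 at Ddx51, 4.85 at Ddx18, 4.67 at Dhx33 and 3.59 at Ddx31. The nucleolar helicase Ddx21 and its paralogue Ddx50 are neighbours on chromosome 10, and each had a peak of its own. Ddx21 had 69 tags (53.7 to 87.3) and a fold of 4.0, and Ddx50 had 78 tags (61.7 to 97.4) and a fold of 4.85. The tag intervals of these 2 peaks overlapped. Ddx10 and Ddx47 were not listed for any peak, and Ddx27, Ddx49, Ddx52 and Dhx37 had peaks only beyond 5 kb of their starts. For Dhx37 the nearest lay 7117 bp upstream, over the start of Bri3bp.

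The smaller roles hold too few genes to be compared. A promoter peak was found at 1 of 2 mitochondrial genes and 3 of 4 other or less studied ones, against 32.8% of all genes. Dhx30, which is needed for the assembly of mitochondrial ribosomes, had a strong peak with 189 tags (163 to 218) at 9.43-fold (score 661.9, rank 251; chromosome 9, 110018890 to 110020459; NM_001252682). It covered the start of 1 of the 3 listed Dhx30 transcripts and lay 805 bp upstream of another. A weaker peak, with 67 tags at a fold of 4.50, covered the start of NM_001252683, which lay 15300 bp downstream of the stronger peak. A peak at the start of the neighbour Smarcc1, 13758 bp upstream of the Dhx30 start, was stronger than either (261 tags, fold 15.0). Ddx28, the other mitochondrial member, was not listed. Of 4 other or less studied members, Ddx59 (chromosome 1, 138311530 to 138312513) had 70 tags (54.6 to 88.4), a fold of 4.51, a score of 97.2 and rank 4761. Dhx57 (chromosome 17, 80689086 to 80689917) had 64 tags (49.3 to 81.7), a fold of 3.18, a score of 62.4 and rank 7380. Dhx32 (chromosome 7, 140968177 to 140968829) had 42 tags (30.3 to 56.8), a fold of 3.64, a score of 55.2 and rank 8103. Dhx40 had only a peak at the start of Cltc, 10431 bp past its own end.

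No promoter peak was found at antiviral, germ-cell or DNA helicase members, 0 of 7 genes together. The antiviral sensor genes Ddx58, which encodes RIG-I, Dhx58, which encodes LGP2, and Ddx60 were not listed for any peak. The germ-cell gene Ddx4, the mouse vasa gene, was not listed either. Ddx25 and Ddx43, also germ-cell genes, were listed for peaks 11203 bp upstream and 52123 bp downstream of their starts, over the starts of Hyls1 and Mto1. Ddx11, a DNA helicase of sister chromatid cohesion, was listed for a peak 11556 bp upstream over the start of Washc1, which the list calls Wash. At a background of 32.8%, groups of 3 genes are too small to set apart from the other roles.

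**Figure D2:**
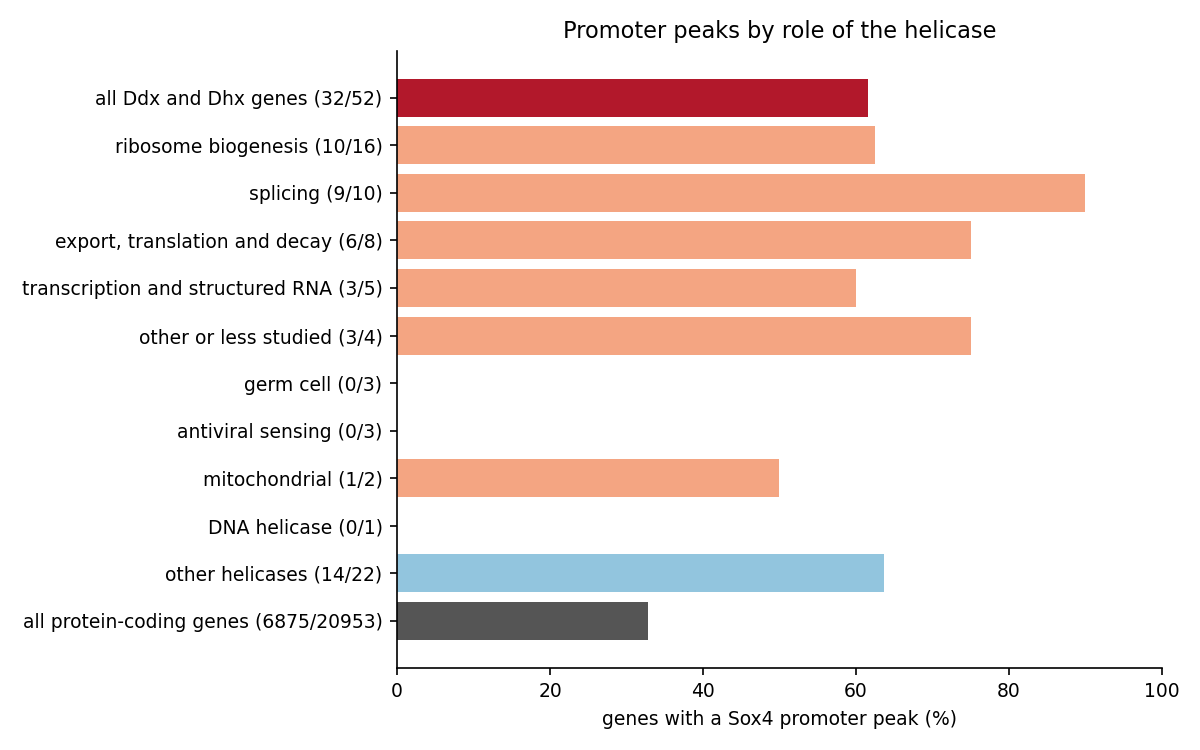
Percentage of genes with a Sox4 promoter peak for all 52 Ddx and Dhx genes, for each role within the family, for 22 other helicase genes and for all protein-coding genes, with counts in the labels. Splicing helicases reach 90% (9 of 10), while the germ-cell and antiviral groups, with 3 genes each, have none. The role groups and the other helicase genes were chosen with earlier results of these data known.

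Of the 11 helicase genes that were listed without a promoter peak, 10 had as their nearest peak one that covered the start of another gene. The same held for 64.4% of the 3375 genes listed without a promoter peak. For the 11 helicase genes the nearest peak lay 7.12 to 52.1 kb from the start. Besides those named above, the 10 included Ddx19b (Exosc6), Ddx27 (Stau1), Ddx49 (Cers1 and Gdf1) and Ddx52 (Synrg).

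Some of the helicase starts were shared with a second gene. Of the 31 family peaks that covered the TSS, 11 also covered the start of another gene (35.5%), against 22.0% of the 5748 genes whose highest-scoring promoter peak covered their start. In 9 of the 11 pairs both strands were known, and they were opposite in all 9. The partners include Gtf3c4 (Ddx31), a TFIIIC subunit, Noc4l (Ddx51), a ribosome biogenesis factor, Txnl4b (Dhx38), a splicing-related protein, and Mtrex (Dhx29), itself an RNA helicase. The others were Ccdc47 (Ddx42), Cep95 (Ddx5), Rita1 (Ddx54), Fank1 (Dhx32), Morn2 (Dhx57) and the noncoding genes 9230116N13Rik (Ddx59) and 9230114K14Rik (Dhx15). The distance between paired starts could be read for Ddx42 (559 bp), Ddx5 (758 bp) and Ddx54 (541 bp). The median score of the 11 shared peaks was 113.5 and their median fold 4.24, and the 21 other family peaks 127.2 and 4.88. A shared peak cannot be given to one gene or the other from these data.

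**Figure D3:**
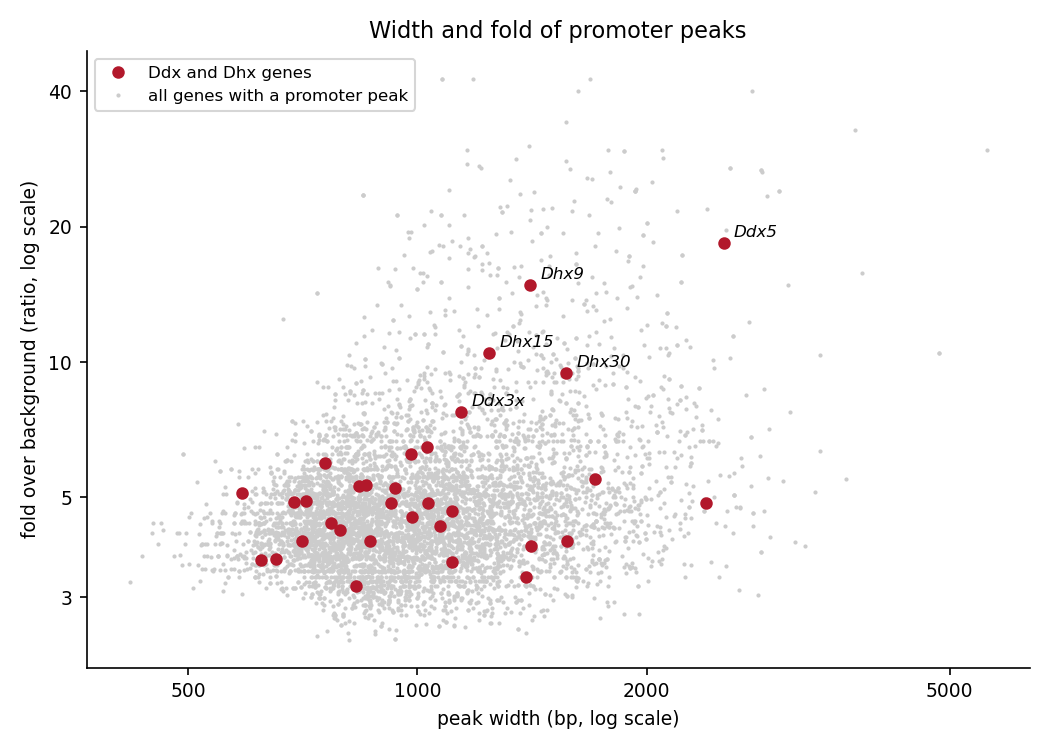
Peak width (bp, log scale) against fold over background (ratio, log scale) for the highest-scoring promoter peak of each helicase gene (red) and of all 6875 genes with a promoter peak (grey). The helicase peaks run from 588 to 2525 bp and from a fold of 3.18 to 18.4, and the 5 with the highest folds are named.

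For 17 of the 32 genes, the mm9 start could be placed from a second peak whose distance to it was listed, or from the peak itself where it missed the start, so that the summit could be set against the start. Summits lay upstream of the start in 12 genes and downstream in 5, with a median of -44 bp, and 11 of the 17 lay within 250 bp of it. Over the 3282 genes where this could be done, the median was -43.5 bp (quartiles -258 and 166), 59.6% of summits were upstream and 53.4% lay within 250 bp. The 5 downstream summits were at Ddx5 (777 bp), Ddx3x (717 bp), Dhx30 (605 bp), Ddx39b (396 bp) and Dhx9 (201 bp). These 5 genes had scores of 298.2 to 1300.4 and peaks of 1141 to 2525 bp, while the 12 with upstream summits had scores of 53.7 to 185.9 and peaks of 623 to 1409 bp. The 2 sets of scores did not overlap, but this split was chosen after its values were seen and covers 17 of the 32 genes. All genes with a placed start showed no such split. The median score was 118.7 (range 50.1 to 3100.0) for the 1319 with a downstream summit. For the 1956 with an upstream one it was 121.0 (50.1 to 3179.3). The Ddx5 peak reached from 1197 bp upstream to 1328 bp downstream of the listed start, and the Dhx9 peak from 352 bp upstream to 1056 bp downstream. A gene with several starts, such as Ddx5, would have another offset from another start.

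**Figure D4:**
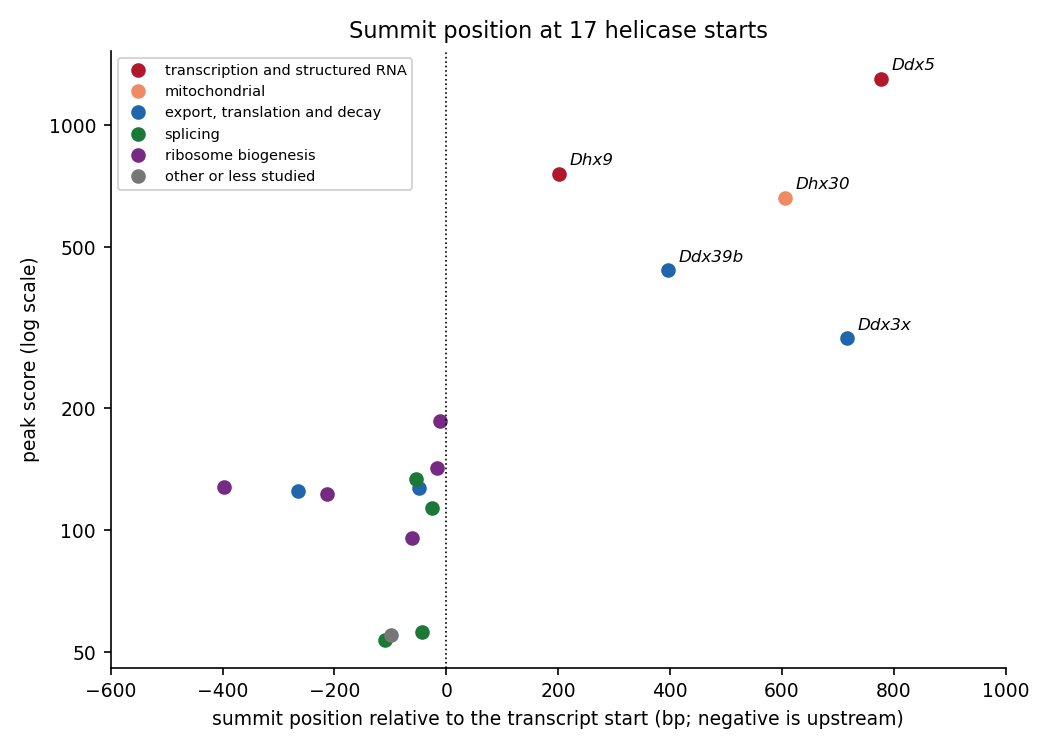
Position of the peak summit relative to the transcript start (bp, negative is upstream) against the peak score (log scale) for the 17 helicase genes whose start could be placed, coloured by role. The 5 genes with summits downstream, which are named, have scores of 298.2 or more, and the 12 with summits upstream have scores of 185.9 or less. This split was chosen after its values were seen.

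Helicase genes with other names were marked about as often. Of 22 related genes, 14 had a promoter peak (63.6%, against the background of 32.8%). The translation factor genes Eif4a2, Eif4a1 and Eif4a3, which encode DEAD-box proteins, had folds of 9.48, 6.50 and 5.66, and the Eif4a1 peak began 518 bp inside the gene. Among the others, folds were 7.59 at Brip1, 7.40 at Dicer1, 5.29 at Mtrex, 4.51 at Rtel1, 4.19 at Snrnp200, 4.16 at Ythdc2, 3.90 at Upf1 and 2.83 at Helz. Dqx1 and Tdrd9 were counted for peaks 2759 and 4198 bp upstream that covered the starts of other genes, at folds of 5.47 and 3.51. Ifih1, which encodes the antiviral sensor MDA5, was not listed, as with Ddx58 and Dhx58. Among the related genes, Aqr, Ascc3, Ercc2, Mov10 and Supv3l1 were not listed either.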

How the data were processed

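Only the peak list of the Sox4 bioChIP library was used, and the input library was not analysed here. The submitters' processing notes name MACS 1.4.2, Bowtie 0.12.8 and the build mm9; neither parameters nor the control are given in them. The deposited tag number is a raw count per peak, the deposited fold is a linear ratio over the caller's background, and the deposited score was taken as p on a minus 10 log10 scale. Distances run from the peak interval to RefSeq starts and ends, and genes were listed within 25 kb. No source used here gives the sequencing depth.

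Transcripts were matched to the RefSeq table (GRCm38.p6) by accession, then by symbol or older symbol, with pandas 2.3.3. Exact binomial and Poisson 95% intervals (SciPy 1.17.1) cover counting error only. The parsing and start placement were tested on simulated data. Of 3424 starts placed by more than 1 peak, 99.8% agreed within 1 bp. Some neighbouring or related genes are not reported here. Every family gene with a promoter peak was named, with full values for the 3 highest scores per role and for genes with 2 promoter peaks. The members, role lists and related genes were chosen with earlier results of these data known, and the split by summit side was chosen after its values were seen. Alternatives were a start window of 1 or 20 kb, covered starts only, higher-scoring peaks, folds of 5 or more, the nearest peak of each gene, and the closest gene only.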

Additional observations from a re-analysis of the deposited data

How the results depend on the processing

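The family count of 32 promoter-peak genes was 32 with a start window of 1 kb, 31 for covered starts and 39 with 20 kb. The share of all genes also rose with the wider window, from 32.8% at 5 kb to 41.9% at 20 kb. The family count was 24 when a peak counted for its closest gene alone. In that last setting Ddx31, Ddx42, Ddx51, Ddx54, Ddx59, Dhx15, Dhx38 and Dhx57 were lost, because the list names the partner at the shared start (all genes: 27.6%). The count fell to 20 (38.5%, against 18.9% of all genes) when only peaks at or above the list's median score of 104.9 were used, and to 13 (25%, against 11.9%) with a fold of 5 or more; both settings use fewer peaks. At the higher scores the roles had promoter peaks in 4 of 10 (splicing), 7 of 16 (ribosome biogenesis), 5 of 8 (export, translation and decay) and 3 of 5 genes (transcription and structured RNA), and with closest genes alone in 6, 7, 6 and 3 of these. The family's median score stayed between 124.7 and 126.2 and its median fold between 4.86 and 4.99 in the 3 alternatives run for each. With 1 library nothing could be left out, and no paired analysis was possible because there are no replicates.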
